A study of Mus musculus with 6 samples.

Results

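Aire and Fezf2 are the 2 best known regulators of self-antigen transcription in medullary thymic epithelial cells (mTECs). Their measurements were taken row by row from 6 deposited expression tables. Every row whose gene column held Aire or Fezf2 was used, which gave 13 of the 25025 rows of each table and 2 of its 20468 gene symbols. Aire had 12 rows and Fezf2 had 1.

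Jmjd3-deficient mTECs were compared with control mTECs by RNA sequencing, and the question posed by the series is what Jmjd3, a histone demethylase with the gene symbol Kdm6b, does for the expression of tissue-restricted antigens. The Jmjd3-deficient group (cKO_262, cKO_263 and cKO_265) came from mice with floxed Jmjd3 alleles and Foxn1-cre, a transgene active in the thymic epithelium, cortex included. The control group (Con_253, Con_261 and Con_264) came from mice with floxed Jmjd3 alleles and no Cre, so the presence of Cre and the loss of Jmjd3 cannot be told apart. Both groups, 3 libraries each, were C57BL/6 mice aged 4 weeks, and per the labels their cells were sorted by flow cytometry, with column-purified RNA and cDNA amplified by a single-cell transcriptome kit.

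Aire (autoimmune regulator) is a nuclear protein with a SAND domain and PHD zinc fingers that releases stalled RNA polymerase at many genes otherwise silent in epithelium, and its loss causes a multi-organ autoimmune syndrome in humans and in mice. Fezf2 is a C2H2 zinc-finger transcription factor, first known from the forebrain, that drives a largely separate set of tissue antigens in mTECs. Aire is turned on late in mTEC maturation by RANK and CD40 signals through the non-canonical NF-kB pathway, whereas Fezf2 is already present in less mature mTECs.

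All 12 Aire rows carry 1 locus in the tables, chromosome 10 from 78030022 to 78063615 (mm10). The annotated Aire gene is shorter. It lies on the minus strand from 78030022 to 78043610, and the rest of the locus belongs to Dnmt3l, a protein-coding gene on the plus strand from 78041947 to 78063622, whose single row carries the same locus. The exons of the 2 genes share 67 bases when all annotated transcripts are counted, and 0 bases among the transcripts linked to RefSeq. Whether the counting used strand was not given, so reads in the shared bases cannot be told apart. Fezf2 was listed on chromosome 14 from 12341892 to 12345865, a span that begins before and ends within its annotated protein-coding gene, which lies on the minus strand from 12342094 to 12348189.

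Rows of 1 symbol could stand for transcripts, promoters or coding sequences, and this was checked against the annotation. Of 19043 symbols matched to RefSeq-linked transcripts of the GENCODE M21 annotation, 2030 had a number of distinct coding sequences that differed from their number of distinct transcript starts. Among these, the number of rows equalled the number of coding sequences in 73.5%, the number of transcripts in 18.1% and the number of starts in 10.9%. Aire has 12 RefSeq coding transcripts and 12 rows, Fezf2 has 1 and 1. Dnmt3l has 6 such transcripts and 1 row. By these counts the rows correspond most often to coding sequences, so the Aire rows are read here as coding forms of 1 gene. The tables do not say which row is which form.

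The annotated Aire coding forms follow from splice choices at 3 places of a gene with 14 exons. Exon 6 ends at either of 2 donor sites that lie 12 bases apart, exon 8 starts at either of 2 acceptor sites that lie 3 bases apart, and exons 10 and 11 are both present, lacking exon 10, or both absent. This makes 12 combinations, of which the annotation used here holds 11, with proteins of 404 to 552 residues. The choices at exons 6 and 8 add or remove 4 residues and 1 residue, while leaving out exon 10 removes 59. With both longer sites, the form holding exons 10 and 11 has 14 coding exons and 552 residues. The form lacking both has 11 coding exons and 409 residues, so more coding sequence is lost than exons 10 and 11 hold. The junctions are printed because they show how small the differences between some of the rows' transcripts are. They are spliced transcript sequences written 5′ to 3′ in the sense of Aire, from GENCODE M21 transcripts on mm10. Capitals mark the bases that only the longer form holds, at chr10:78039931-78039942 for exon 6 and chr10:78037986-78037988 for exon 8, on the minus strand, and each junction is shown with 20 bases on either side.
Aire exon 6 end, long: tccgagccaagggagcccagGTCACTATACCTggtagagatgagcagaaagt
Aire exon 6 end, short: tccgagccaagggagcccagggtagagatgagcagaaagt
Aire exon 8 start, long: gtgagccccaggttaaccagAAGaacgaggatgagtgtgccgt
Aire exon 8 start, short: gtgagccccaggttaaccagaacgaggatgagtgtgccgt

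The third place has whole exons in play, and these are printed because their presence or absence makes the largest difference in protein length. Exon 10 has 177 bases (chr10:78035657-78035833) and exon 11 has 122 bases (chr10:78034586-78034707), both on the minus strand and in the sense of Aire.
Aire exon 10: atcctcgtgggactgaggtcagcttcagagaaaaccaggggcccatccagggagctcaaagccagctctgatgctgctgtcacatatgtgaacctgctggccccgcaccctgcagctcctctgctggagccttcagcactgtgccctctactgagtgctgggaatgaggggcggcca
Aire exon 11: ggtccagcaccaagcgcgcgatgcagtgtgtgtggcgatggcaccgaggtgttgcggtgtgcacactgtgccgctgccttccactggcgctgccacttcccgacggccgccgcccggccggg

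**Figure D1:**
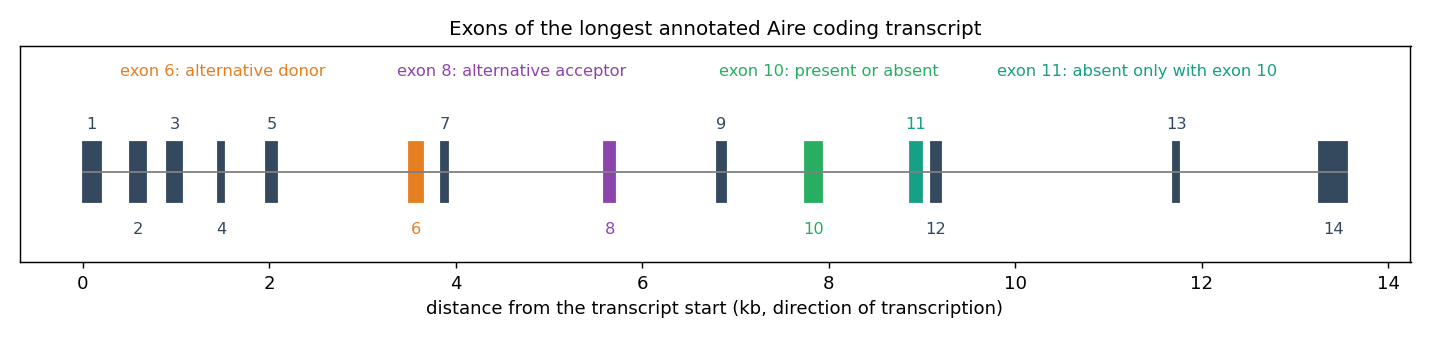
Map of the 14 exons of the longest annotated Aire coding transcript, drawn to scale against distance from the transcript start (kb). Coloured exons are those whose ends or presence differ between the annotated coding forms, which are exon 6, exon 8, exon 10 and exon 11.

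The values are FPKM, which scale fragments by transcript length and by mapped fragments, and the depth of each library is unknown. Levels of different genes are compared here per length only. The summed FPKM of all genes was 582835, 634145 and 641060 in the cKO libraries, and 543156, 507417 and 461152 in the Con libraries, with no overlap (libraries are given in the order of their numbers throughout). Cytosolic ribosomal protein genes (81 symbols) made up 15.5% to 19.3% of it in the cKO libraries and 10.9% to 13.3% in the Con libraries. The summed level of 4 Y-linked genes was at most 0.110 FPKM in the 3 cKO libraries, and it reached 12.6 FPKM in Con_253 but not above 0.0526 FPKM in the other Con libraries. Kdm6b, the targeted gene, was at 11.1, 11.6 and 8.67 FPKM in the cKO libraries and at 18.1, 17.1 and 9.998 FPKM in the Con libraries, overlapping through Con_264 (log2 fold change -0.45, SE 0.23, limma adjusted p = 0.418). Rescaled to equal library sums, a scaling chosen after the data were seen, Kdm6b was at 19.0, 18.4 and 13.5 in the cKO libraries. The Con libraries were at 33.3, 33.6 and 21.7, without overlap, and 30.2% of all genes were lower without overlap on this scale. Leaving ribosomal protein genes out of the sum gave 16.5 to 22.8 (cKO) and 24.3 to 38.4 (Con), again without overlap. By rank the Kdm6b groups overlapped. Which exons were floxed is not given in the labels, and each Kdm6b value covers the whole gene.

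Summed over its rows, Aire was at 504, 456 and 317 FPKM in the cKO libraries, and at 399, 348 and 230.3 FPKM in the Con libraries. Both cKO_262 and cKO_263 lay above all Con libraries, cKO_265 lay below 2 of the 3, and the groups overlapped. The mean was 425.8 ± 97.0 FPKM in the cKO libraries and 325.7 ± 86.5 FPKM in the Con libraries (SD, n = 3 each). The log2 fold change, cKO minus Con on log2(FPKM + 1), was 0.40 (SE 0.25, 95% interval -0.17 to 0.96), a 1.32-fold higher value short of the threshold (limma adjusted p = 0.5004). As background, 12 of 15720 genes or 0.0763% passed the threshold, 0.0191% with higher and 0.0573% with lower values. The groups did not overlap for 21.5% of genes, 9.59% with higher and 11.9% with lower values. Leaving out 1 library moved the Aire log2 fold change by over 1.5 times in 3 cases, to 0.16 without Con_264, 0.26 without cKO_262 and 0.59 without cKO_265. It was 0.56 without Con_253 and 0.76 without both Con_253 and cKO_265. These are the highest Con and the lowest cKO library for Aire, so leaving both out could only raise the value. None of these refits passed the threshold (limma adjusted p 0.175 to 0.797). In bulk RNA, a smaller share of cells expressing a gene and less RNA per cell cannot be told apart.

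Fezf2 was at 235.4, 232.7 and 192.5 FPKM in the cKO libraries, and at 232.2, 239.97 and 186.9 FPKM in the Con libraries. The lowest library of each group, cKO_265 and Con_264, was also its group's lowest for Aire, and the other 4 lay close together. The mean was 220.2 ± 24.0 FPKM in the cKO libraries and 219.7 ± 28.7 FPKM in the Con libraries (SD, n = 3 each). The log2 fold change was 0.01 (SE 0.16, 95% interval -0.35 to 0.36, limma adjusted p = 0.990).

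Aire ranked 141st, 180th and 288th of 20443 genes in the cKO libraries, and 184th, 197th and 282nd in the Con libraries, where rank 1 is the highest FPKM. Fezf2 ranked 371st, 399th and 468th in the cKO libraries, and 351st, 312th and 349th in the Con libraries. Both genes were thus among the most abundant transcripts of these sorts in all 6 libraries, with Aire above Fezf2 in each. By rank the groups overlapped for Aire and did not overlap for Fezf2, which stood lower in every cKO library. So did 10% of all genes by rank, while 8.97% stood higher.

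The direction for Fezf2 depended on how libraries were scaled. With every library rescaled to a sum of 1000000, a scaling chosen after the data were seen, Fezf2 was at 404, 367 and 300.4 in the cKO libraries, and at 428, 473 and 405 in the Con libraries. The groups did not overlap there, by the narrow gap between cKO_262 and Con_264, and 30.2% of all genes were lower without overlap on this scale (2.39% higher). The log2 fold change was -0.29 (SE 0.15, limma adjusted p = 0.254). Aire was at 865, 719 and 495 on this scale in the cKO libraries, and at 734, 686 and 499 in the Con libraries, and its log2 fold change was 0.10 (limma adjusted p = 0.786). This scaling moved the median of all genes to -0.30, against -0.04 as deposited, so Fezf2 stood near the median gene and Aire above it on that scale. With the ribosomal protein genes left out of the rescaled sum, also a later choice, the median gene was at -0.22, Fezf2 at -0.20 and Aire at 0.19, and the Fezf2 groups overlapped. Under quantile normalization, where the median gene was at 0.01, Fezf2 was at -0.27 and Aire at 0.11. Under median centring, where the median gene was at 0.05, Fezf2 was at 0.09 and Aire at 0.48.

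The ratio of Aire to Fezf2 within a library does not change with a library-wide scaling. The ratio stood at 2.14, 1.96 and 1.65 in the cKO libraries, and at 1.72, 1.45 and 1.23 in the Con libraries. Only cKO_265 and Con_253 crossed over. The mean ratio was 1.92 ± 0.249 in the cKO libraries and 1.47 ± 0.243 in the Con libraries (SD, n = 3 each), 1.31-fold on the log scale (exact permutation test, 2-sided, p = 0.2). With 3 against 3 libraries such a test cannot give a p below 0.1.

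**Figure D2:**
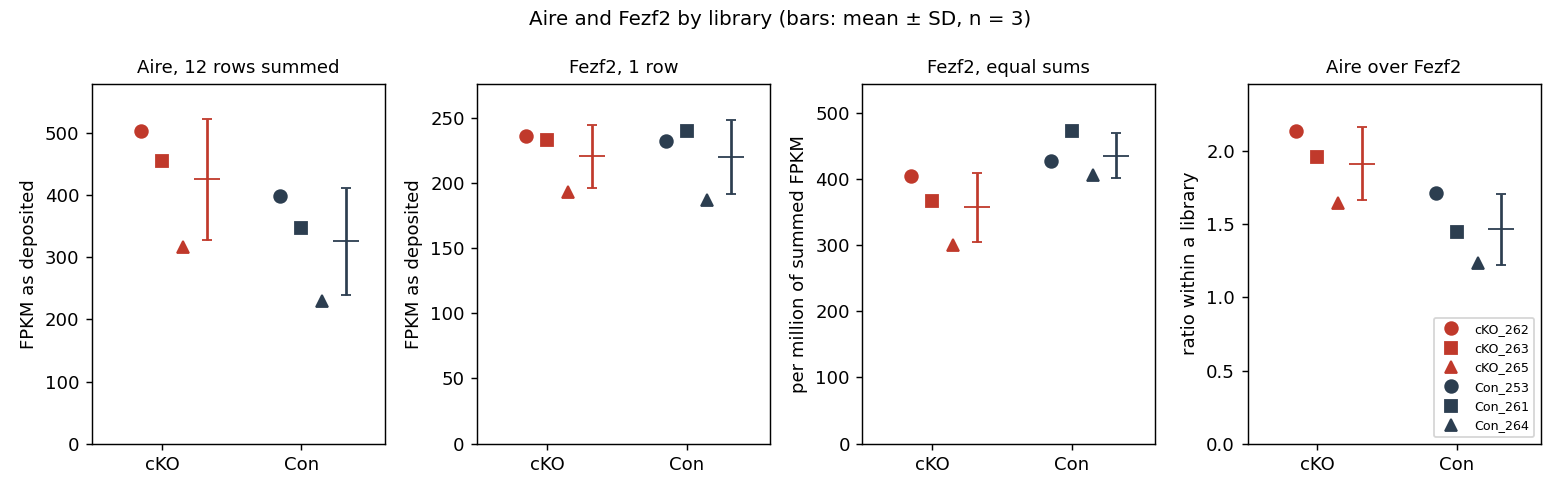
Aire summed over 12 rows and Fezf2 in FPKM as deposited, Fezf2 rescaled to equal library sums, and the ratio of Aire to Fezf2, with cKO libraries left and Con libraries right. Points are libraries and bars are the mean ± SD (n = 3 each). The groups overlap in all panels other than the rescaled Fezf2, where the cKO libraries lie at 300.4 to 404 and the Con libraries at 405 to 473, on a scale where each library sums to 1000000.

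The Aire rows are numbered by their mean over the 6 libraries. Row 1, the most abundant, was at 123.2, 110.6 and 97.9 FPKM in the cKO libraries, and at 116.8, 86.6 and 78.1 FPKM in the Con libraries. Row 2 was at 91.8, 97.5 and 80.2 FPKM in the cKO libraries, and at 100.8, 89.1 and 65.0 FPKM in the Con libraries. These rows overlapped widely between groups, and their log2 fold changes of 0.25 (SE 0.18) and 0.10 (SE 0.19) were both short of the threshold (limma adjusted p = 0.607 and 0.861). Row 1 was at 0.13 without Con_264 and 0.42 without Con_253, and row 2 was at -0.080 without Con_264 and 0.23 without Con_253. Together they carried about as much Aire signal in Con_253, at 217.6 FPKM, as in cKO_262, at 215.0 FPKM.

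Row 3 was at 82.4, 56.2 and 27.8 FPKM in the cKO libraries, and at 36.2, 36.2 and 22.3 FPKM in the Con libraries. Row 5 was at 61.3, 49.6 and 22.8 FPKM in the cKO libraries, and at 31.3, 37.3 and 18.5 FPKM in the Con libraries. In both, cKO_262 and cKO_263 lay above every Con library and cKO_265 below all but Con_264. The log2 fold changes were 0.70 for row 3 (SE 0.39, limma adjusted p = 0.510) and 0.55 for row 5 (SE 0.40, limma adjusted p = 0.613). Row 3 was at 0.35 without cKO_262 and 1.12 without cKO_265. Row 5 was at 0.26 without cKO_262 or Con_264 and 0.96 without cKO_265.

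Row 4 was at 52.0, 51.7 and 39.7 FPKM in the cKO libraries, and at 48.6, 35.5 and 20.6 FPKM in the Con libraries. Row 6 was at 37.3, 44.8 and 31.7 FPKM in the cKO libraries, and at 41.1, 36.7 and 16.8 FPKM in the Con libraries. Con_264 was the lowest library of both rows, and Con_253 lay among the cKO libraries. The log2 fold changes were 0.51 for row 4 (SE 0.30, limma adjusted p = 0.526) and 0.34 for row 6 (SE 0.33, limma adjusted p = 0.710). Row 4 was at 0.19 without Con_264 and 0.79 without Con_253, and row 6 was at -0.047 without Con_264 and 0.57 without Con_253.

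Rows 7 and 8 were the least abundant of those measured throughout. Row 7 was at 32.5, 24.0 and 9.59 FPKM in the cKO libraries, and at 12.8, 13.05 and 5.01 FPKM in the Con libraries. Row 8 was at 23.3, 20.8 and 7.64 FPKM in the cKO libraries, and at 10.8, 13.5 and 4.07 FPKM in the Con libraries. Here too cKO_262 and cKO_263 were highest and cKO_265 fell between Con_264 and the other Con libraries. The log2 fold changes of 0.98 for row 7 (SE 0.50) and 0.80 for row 8 (SE 0.52) were the largest among the Aire rows, with the widest errors and limma adjusted p of 0.462 and 0.562. Without Con_264 they were 0.57 and 0.34, and row 3, at 0.47, then exceeded row 8. Without cKO_262 row 7 was at 0.63 and row 8 at 0.53. Without cKO_265 row 8 was at 1.27.

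All 8 of these rows had a higher mean FPKM in the cKO libraries as deposited, although rows 1 and 2 turned to -0.047 and -0.20 with equal sums, and row 2 also to -0.066 under quantile normalization and -0.10 with equal sums without ribosomal protein genes. The rows are forms of 1 gene read from the same libraries and are not independent. Of all 17764 rows tested, 45.5% had a fold change above 0 and 0.0507% passed the adjusted threshold, 0.0169% higher and 0.0338% lower. None of the 8 passed it (limma), and 0 had an unadjusted p under 0.05, against 13% of all rows. In none did the groups separate, against 20.1% of all rows, 9.04% higher and 11% lower.

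The remaining rows, 9 to 12, carry the status NOTEST in the tables and lay under the filter of a mean of 0.5 FPKM, so they were not tested. They reached at most 0.246 FPKM, in Con_253. All were listed at 0 in cKO_265, Con_261 and Con_264, and a listed 0 may be a failed estimate. Summed, they made up 0.0943% and 0.0776% of Aire in cKO_262 and cKO_263 and 0.133% in Con_253. In effect the Aire level rested on 8 of the 12 rows in every library.

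**Figure D3:**
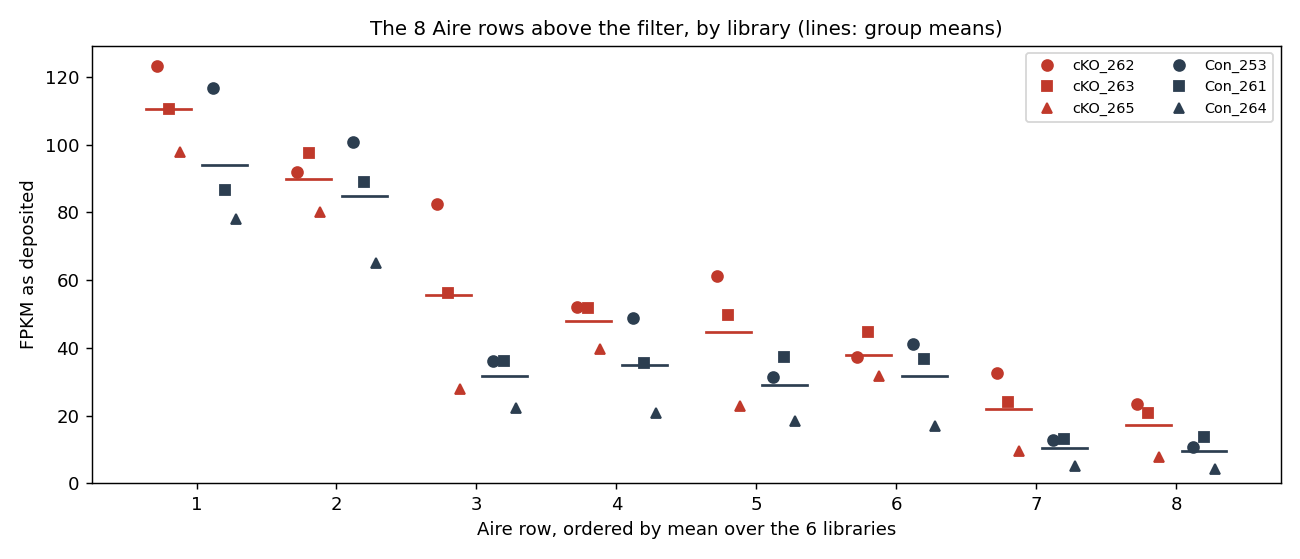
FPKM of the 8 Aire rows above the filter, with cKO libraries left and Con libraries right in each row. Points are libraries and lines are group means (n = 3 each). In rows 3, 5, 7 and 8, cKO_262 and cKO_263 lie above every Con library while cKO_265 lies low, and no row separates the groups.

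The make-up of Aire was then compared as each row's percent of the Aire sum. Row 1 made up 24.4%, 24.3% and 30.9% in the cKO libraries, and 29.3%, 24.9% and 33.9% in the Con libraries. Row 2 made up 18.2%, 21.4% and 25.3% in the cKO libraries, and 25.3%, 25.6% and 28.2% in the Con libraries. The share of row 2 differed by -4.73 percentage points, with cKO_262 and cKO_263 below every Con library and cKO_265 level with Con_253 (exact permutation test, 2-sided, p = 0.2). Row 7 made up 6.46%, 5.27% and 3.02% in the cKO libraries, and 3.20%, 3.75% and 2.17% in the Con libraries (exact permutation p = 0.3). In the cKO libraries rows 3, 4, 5, 6 and 8 averaged 12.5%, 11.4%, 10.1%, 9.07% and 3.86% of the Aire sum. In the Con libraries the same rows averaged 9.71%, 10.5%, 8.87%, 9.38% and 2.79%. Raw p over the 8 shares lay between 0.2 and 0.6, and the adjusted p was 0.6 for each, so no shift in make-up was distinguished from the spread between libraries.

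The 8 rows could be set into 4 pairs with nearly the same ratio within a library. The pairs were found from the values, by comparing the 105 ways of pairing 8 rows. The pairing kept was the one whose 4 ratios lay closest together within libraries. Their closeness is thus what the choice selected for, and no test was made of it. They are row 2 over row 1, row 5 over row 3, row 6 over row 4, and row 8 over row 7. The 4 ratios lay between 0.716 and 0.745 in cKO_262, between 0.866 and 0.882 in cKO_263, and between 0.797 and 0.819 in cKO_265. They lay between 0.845 and 0.863 in Con_253, between 1.03 and 1.04 in Con_261, and between 0.812 and 0.832 in Con_264. Within a library the ratio was nearly common to all pairs, as the choice of pairing favoured, and it differed between libraries. Con_261 was the library in which the second row of each pair exceeded the first.

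The sums of the pairs varied more widely than these ratios. Rows 7 and 8 together were at 55.9, 44.8 and 17.2 FPKM in the cKO libraries, and at 23.6, 26.6 and 9.08 FPKM in the Con libraries. Rows 3 and 5 together were at 143.6, 105.9 and 50.6 FPKM in the cKO libraries, and at 67.5, 73.5 and 40.8 FPKM in the Con libraries. The ratio of row 3 to row 4 was 1.58, 1.09 and 0.701 in the cKO libraries, and 0.744, 1.02 and 1.08 in the Con libraries. The span among the cKO libraries enclosed all Con values. What the shared ratio reflects was not tested.

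**Figure D4:**
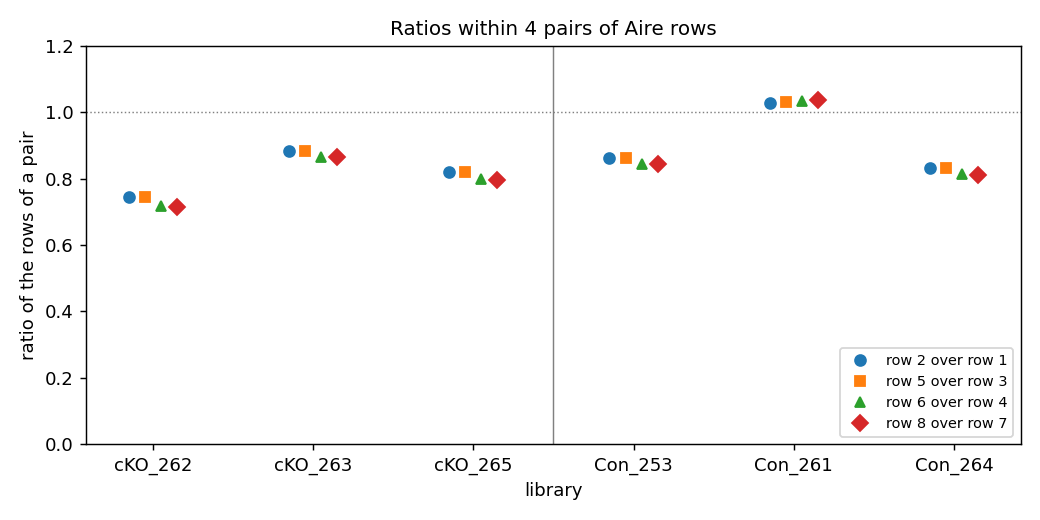
Ratio of the second to the first row in 4 pairs of Aire rows, by library, with the cKO libraries left of the line and the Con libraries right. Each symbol is a pair, and the pairing was chosen for the closeness of its 4 ratios within libraries. The 4 symbols nearly coincide in each library, from 0.716 to 0.745 in cKO_262 and from 1.03 to 1.04 in Con_261.

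Genes upstream of Aire were read next. Of 19 receptor and NF-kB signalling genes of the pathways that induce Aire, 6 had higher and 13 lower values in the cKO libraries. This list does not keep activators and inhibitors apart, so its counts and median give no direction of signalling. The median log2 fold change of its genes was -0.12, against -0.04 over all genes. None passed the test (limma), with 1 higher and 2 lower at an unadjusted p below 0.05, or 3 of 19. Over all genes 14.6% were below it, 6.81% higher and 7.82% lower, so the list stood near this background. The list's median was 0.003 without both Con_253 and cKO_265, -0.04 without cKO_265 and -0.42 with equal sums. Cd40, the receptor for T-cell help, was at 193.1, 191.8 and 189.4 FPKM in the cKO libraries, and at 151.3, 138.8 and 136.6 FPKM in the Con libraries. The groups did not overlap for Cd40 (log2 fold change 0.43, SE 0.12, limma adjusted p = 0.190). In this list 3 of 19 genes were higher and 2 lower without overlap, against 9.59% and 11.9% of all genes. Traf6, an adaptor of the RANK and CD40 receptors, averaged 18.2 ± 1.36 FPKM in the cKO libraries and 14.6 ± 1.11 FPKM in the Con libraries (log2 fold change 0.30, limma adjusted p = 0.370).

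Traf5, another adaptor of this receptor family, averaged 2.85 ± 0.625 FPKM in the cKO libraries and 4.45 ± 0.313 FPKM in the Con libraries (log2 fold change -0.51, limma adjusted p = 0.248). Rel, an NF-kB subunit, averaged 3.49 ± 1.36 FPKM in the cKO libraries and 5.81 ± 1.249 FPKM in the Con libraries (log2 fold change -0.63, limma adjusted p = 0.289). A further pair was named for its role and outside the rule for named genes. Tnfrsf11a, which encodes RANK, was at 35.1, 29.1 and 25.99 FPKM in the cKO libraries and at 29.4, 32.6 and 34.0 FPKM in the Con libraries (log2 fold change -0.10). Relb, the NF-kB subunit of the non-canonical pathway, was at 246.4, 203.8 and 150.1 FPKM in the cKO libraries and at 232.2, 268.3 and 183.7 FPKM in the Con libraries (log2 fold change -0.20). Both overlapped between groups.

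Of 10 genes whose products modify or accompany Aire or Fezf2, 6 had higher and 4 lower values, with a median of 0.07 that turned to -0.22 with equal sums and -0.13 with equal sums without ribosomal protein genes. None passed the test (limma), with 2 lower at an unadjusted p below 0.05, against 7.82% lower over all genes. Jmjd6, a hydroxylase reported to be needed for correct Aire splicing, was at 14.9, 13.97 and 16.6 FPKM in the cKO libraries, and at 25.3, 24.0 and 19.6 FPKM in the Con libraries. The groups did not overlap (log2 fold change -0.56, SE 0.16, limma adjusted p = 0.177). Among the 10 genes 2 were higher and 2 lower without overlap, against 9.59% and 11.9% of all genes. Crebbp, the acetyltransferase CBP that binds Aire, averaged 7.64 ± 0.928 FPKM in the cKO libraries and 10.9 ± 0.923 FPKM in the Con libraries (log2 fold change -0.47, limma adjusted p = 0.240). Atf7ip, a partner of the repressor MBD1 with which Aire associates, stood at -0.32 and Chd4, a nucleosome remodeller linked to Fezf2, at 0.21 on the log2 scale (limma adjusted p = 0.475 and 0.523).

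The relatives of the members did not pass the test either. Of 6 genes that share the SAND or SP100 domains with Aire, 2 had higher and 4 lower values, with a median of -0.04 that turned to 0.05 under median centring and 0.02 without cKO_262, and 0 had an unadjusted p under 0.05 (limma). Sp100, a component of nuclear bodies, was at 39.0, 35.2 and 37.7 FPKM in the cKO libraries, and at 34.9, 46.1 and 55.7 FPKM in the Con libraries (log2 fold change -0.26, limma adjusted p = 0.548). Log2 fold changes were -0.18 for Sp110, 0.04 for Gmeb1 and 0.09 for Gmeb2. Fezf1, the close relative of Fezf2 known from the olfactory system and hypothalamus, was at 3.25, 6.96 and 2.01 FPKM in the cKO libraries, and at 7.09, 5.08 and 4.39 FPKM in the Con libraries. It was far below Fezf2 in all 6 libraries (log2 fold change -0.46, SE 0.34, limma adjusted p = 0.575). For Fezf1 the value turned to 0.06 with array weights and 0.02 without both Con_253 and cKO_265, and was -0.84 without cKO_263, -0.29 without Con_253 and -0.14 without cKO_265.

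Of 17 genes often cited as dependent on Aire, 16 were in the tables and 13 passed the filter. Of these, 4 had higher and 9 lower values, with a median of -0.07 that turned to 0.01 under median centring, and none passed the test (limma), with 1 higher and 2 lower at an unadjusted p under 0.05, against 6.81% and 7.82% of all genes. The median also turned to 0.04 with the 5 FPKM filter, 0.07 with array weights and 0.01 without cKO_262. Pcp4, a calmodulin-binding peptide of Purkinje cells, was at 10.5, 26.9 and 30.4 FPKM in the cKO libraries, and at 7.23, 8.05 and 6.96 FPKM in the Con libraries (log2 fold change 1.36, SE 0.34, limma adjusted p = 0.155). Ins2, an insulin gene, was at 2.51, 0.307 and 1.01 FPKM in the cKO libraries, and at 3.11, 2.57 and 2.88 FPKM in the Con libraries (log2 fold change -0.87, SE 0.33, limma adjusted p = 0.269). Tgm3, a transglutaminase of skin and hair, averaged 2.80 ± 1.16 FPKM in the cKO libraries and 5.84 ± 0.309 FPKM in the Con libraries (log2 fold change -0.89, limma adjusted p = 0.165). For these 3 of the 13 tested genes the groups did not overlap, 1 higher and 2 lower. Over all genes 9.59% were higher and 11.9% lower without overlap, so the list stood near this background. The summed level of the list was 194.8 to 359 FPKM in the cKO libraries and 232.1 to 255.6 FPKM in the Con libraries. A large part of it was S100a8, at 95.5 to 214.6 FPKM in the cKO libraries and 103.3 to 137.1 FPKM in the Con libraries.

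Genes often cited as dependent on Fezf2 had lower values in 9 of 10 cases, with a median of -0.23, whereas 45.3% of all genes had a fold change above 0. None passed the test (limma), and 2, both lower, had an unadjusted p under 0.05, against 7.82% lower over all genes. The list's median was -0.13 without cKO_262, -0.15 under median centring, -0.39 with the 5 FPKM filter, and -0.52 and -0.43 with the equal sums. The summed level of the list was 170.5 to 204.1 FPKM in the cKO libraries and 242.4 to 258.2 FPKM in the Con libraries. The sums did not overlap, but most of each came from Resp18 and Krt10. Resp18 averaged 108.7 FPKM in the cKO and 132.4 FPKM in the Con libraries, and Krt10 averaged 28.1 and 60.9 FPKM. Gene by gene, 2 of 10 were lower without overlap, against 11.9% of all genes. Fezf2 itself averaged nearly the same in the 2 groups as deposited, and a link to these genes was not tested. Krt10, a keratin of differentiated epidermis, was at 35.3, 31.2 and 17.9 FPKM in the cKO libraries, and at 50.6, 72.4 and 59.6 FPKM in the Con libraries (log2 fold change -1.13, SE 0.25, limma adjusted p = 0.126). Nov, a secreted matrix-associated protein, was at 4.13, 4.57 and 4.47 FPKM in the cKO libraries, and at 8.52, 6.80 and 9.18 FPKM in the Con libraries (log2 fold change -0.76, SE 0.17, limma adjusted p = 0.125). Resp18, a neuroendocrine protein, and Maoa, a monoamine oxidase, stood at -0.29 and -0.39 with overlapping groups.

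**Figure D5:**
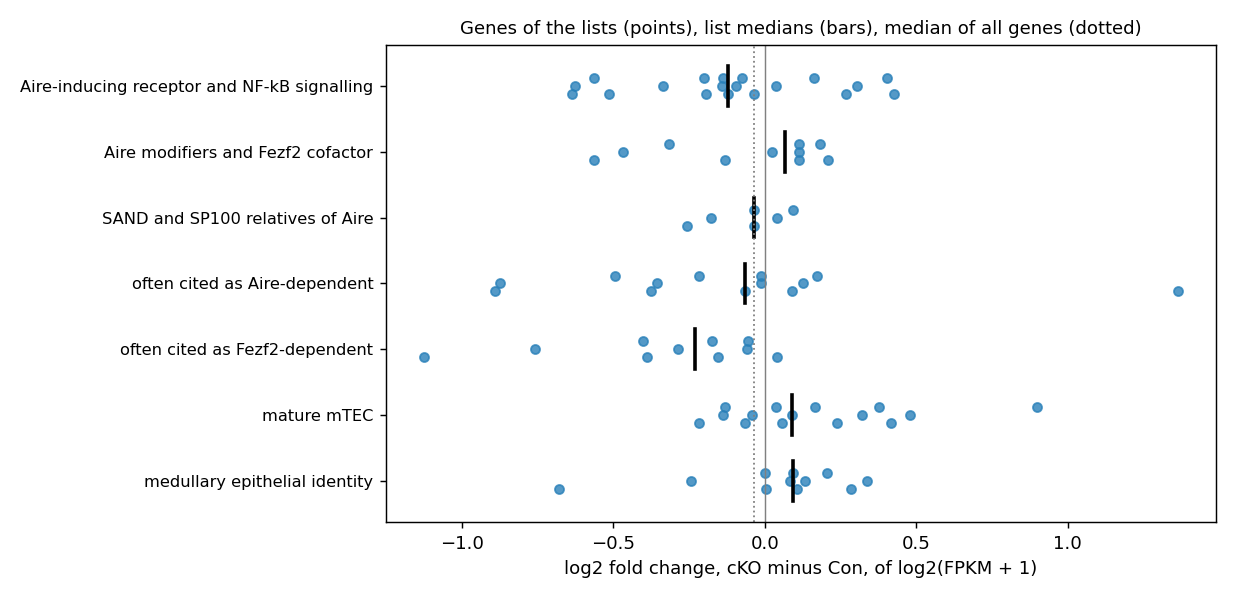
Log2 fold changes, cKO minus Con on log2(FPKM + 1), of the tested genes of 7 lists around Aire and Fezf2. Points are genes, bars are list medians and the dotted line is the median of all genes at -0.04. The list often cited as Fezf2-dependent has the lowest median of these, at -0.23, and the 2 mTEC lists lie at 0.09, which turned negative under quantile normalization and with equal sums.

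The sorted cells carried the markers of mature mTECs in all libraries. Of 15 such markers 10 had higher and 5 lower values, with a median of 0.09 that turned to -0.04 under quantile normalization, -0.21 with equal sums and -0.11 with equal sums without ribosomal protein genes. Of 11 markers of medullary epithelium 9 had higher and 2 lower values, with a median of 0.09 that turned to -0.25, -0.20 and -0.11 under the same scalings. None of either list passed the test (limma), with 3 higher mature markers of 15 at an unadjusted p under 0.05, against 6.81% higher over all genes. Tnfrsf4, the receptor OX40, averaged 19.3 ± 7.01 FPKM in the cKO libraries and 9.47 ± 0.596 FPKM in the Con libraries (log2 fold change 0.90, limma adjusted p = 0.163). Tnfrsf9, the receptor 4-1BB, was at 88.0, 96.1 and 96.6 FPKM in the cKO libraries, and at 75.5, 63.97 and 61.6 FPKM in the Con libraries (log2 fold change 0.48, limma adjusted p = 0.188). Cd83 and Fgf21 stood at 0.42 and 0.38, and Krt17, Krt14, Foxn1 and Cldn3 at 0.28, 0.34, -0.24 and -0.68. The 5 lower mature markers, given outside the rule for named genes, were Cd80, Cd74, H2-Ab1, H2-DMb1 and H2-Aa. They stood at -0.22, -0.14, -0.13, -0.07 and -0.04, with overlapping groups.

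Aire and Fezf2 were also set against epithelial markers. The ratio of Aire to Epcam, an epithelial surface marker, was 0.620, 0.543 and 0.336 in the cKO libraries, and 0.531, 0.392 and 0.296 in the Con libraries. The ratio of Fezf2 to Epcam was 0.290, 0.277 and 0.204 in the cKO libraries, and 0.309, 0.270 and 0.240 in the Con libraries. Both ratios overlapped between groups. The ratio of Aire to Cd80, a marker of mature mTECs, was 8.56, 9.31 and 6.25 in the cKO libraries, and 7.46, 5.54 and 3.34 in the Con libraries, again with overlap.

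Markers of other cells were read beside these results. Outside the tuft-like list none of them passed the test (limma). In the other lists 1 was higher and 8 lower at an unadjusted p under 0.05, against 6.81% and 7.82% of all genes. Those lists held 9 cortical, 10 thymocyte, 6 B-cell, 5 dendritic cell and macrophage, and 6 endothelium and fibroblast genes tested. The higher gene was Cd83, which is also in the list of mature mTEC markers. Of the lower genes, 5 were thymocyte markers. Of 13 tested tuft-like mTEC markers 12 had lower values with a median of -1.65. Among them 4 fell past the threshold (limma), namely Rgs13, Avil, Sh2d7 and Plcb2, against 0.0573% of all genes. The tuft-like list summed to 127.0 to 232.5 FPKM in the cKO libraries and 242.8 to 321.9 FPKM in the Con libraries. Of 10 tested thymocyte markers 9 had lower values with a median of -0.62, and their summed level was 32.3 to 41.4 FPKM in the cKO libraries and 45.1 to 74.0 FPKM in the Con libraries. The dendritic cell and macrophage gene Lyz2 was at 241.7 to 275.1 FPKM in the cKO libraries and 324.2 to 362.2 FPKM in the Con libraries, while the rest of that list summed to 24.8 to 31.3 FPKM in the cKO libraries and 25.8 to 35.4 FPKM in the Con libraries, with overlap. The markers of endothelium and fibroblasts summed to 13.9 to 17.0 FPKM in the cKO libraries and 17.4 to 20.8 FPKM in the Con libraries. The summed cortical epithelial and B-cell lists overlapped between groups. The cortical median of 0.13 turned to -0.12 and -0.04 with the equal sums, -0.01 with array weights, -0.15 without cKO_265, -0.02 without Con_264 and -0.14 without both Con_253 and cKO_265. The B-cell median of -0.28 turned to 0.02 with the 5 FPKM filter. None of the marker genes was at 0 in all libraries. The part of these cells in the Aire and Fezf2 values was not tested.

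The nearest genes were read for signal shared along the chromosome. Dnmt3l, the catalytically inactive cofactor of DNA methyltransferases whose locus the tables merge with that of Aire, was at 21.3, 21.1 and 18.1 FPKM in the cKO libraries, and at 17.2, 18.9 and 16.7 FPKM in the Con libraries (log2 fold change 0.19, SE 0.14, limma adjusted p = 0.589). Icosl, the ligand of the T-cell costimulator ICOS, lies 5753 bases beyond that locus. It was at 146.7, 132.7 and 114.7 FPKM in the cKO libraries, and at 102.0, 108.6 and 96.4 FPKM in the Con libraries. The groups did not overlap as deposited, as for 9.59% of all genes with higher values (log2 fold change 0.35, SE 0.14, limma adjusted p = 0.301). Rescaled to equal library sums, Icosl was at 179.0 to 251.7 in the cKO libraries and 187.8 to 214.0 in the Con libraries. The groups overlapped there, as they did by rank and with ribosomal protein genes left out of the sum. Pfkl, liver-type phosphofructokinase, lies 20226 bases before the locus and had a log2 fold change of 0.02 (SE 0.23).

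Around Fezf2 the next symbols were 3830406C13Rik, 38661 bases before, and Cadps, a priming factor of secretory vesicles, 26698 bases after. Cadps was at 24.4, 20.5 and 24.8 FPKM in the cKO libraries, and at 27.2, 26.2 and 26.8 FPKM in the Con libraries (log2 fold change -0.20, limma adjusted p = 0.550). 3830406C13Rik averaged 95.3 ± 9.61 FPKM in the cKO libraries and 79.5 ± 3.55 FPKM in the Con libraries (log2 fold change 0.26, limma adjusted p = 0.422). Neither gene's groups overlapped, and their directions were opposite. Over all genes 9.59% were higher and 11.9% lower without overlap.

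The genes whose pattern over the 6 libraries was most like that of each member were named by Pearson's r of log2(FPKM + 1) among the 8931 genes averaging 5 FPKM or more. The 6 points share each library's scaling and depth, so r only ranks the genes here. For Aire they were Txndc15 (r = 0.997), the histone methyltransferase gene Dot1l (r = 0.993) and, after 1 predicted gene or clone that is counted but not named, Tmem189 (r = 0.991), the sialyltransferase gene St3gal3 (r = 0.991) and the transcription factor gene Gtf2i (r = 0.990). Dot1l was at 49.6, 48.1 and 37.8 FPKM in the cKO libraries, and at 43.9, 42.02 and 32.4 FPKM in the Con libraries, with cKO_265 and Con_264 lowest as for Aire. For Fezf2 they included the nuclear receptor gene Nr2f6 (r = 0.995), Smcr7l (r = 0.993), Zfp787 (r = 0.993) and Dohh (r = 0.991). Nr2f6 was at 82.5, 73.9 and 45.5 FPKM in the cKO libraries, and at 76.2, 88.9 and 41.5 FPKM in the Con libraries. None of these 9 genes separated the groups.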

How the data were processed

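The authors deposited 1 table of FPKM per library, made with Bowtie2 2.2.5 and Cufflinks on mm10, per the submitters' processing notes. Annotation, strand use and scaling across libraries are not given in the sources used here. The tables hold no counts, so depth and counting errors are unknown. Starts were raised by 1 base. The 44 rows whose 25 symbols had become dates were left out, rows of a symbol were summed, and single rows were also fitted apart.

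Genes (15720) and rows (17764) with a mean of at least 0.5 FPKM entered limma 3.58.1 (R 4.3.3) as log2(FPKM + 1) (mean-variance trend, 2-sided, Benjamini-Hochberg over all tested, threshold 0.05). The added 1 understates changes of low genes. The limma step was tested on simulated data. Shares and ratios were compared by exact permutation tests (scipy 1.17.1). Each library carries its own mouse number, and p-values measure the spread between libraries.

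The members and lists were chosen with earlier results of these data known. Named genes are the members, their relatives, the nearest symbols, the 5 genes most like each member (1 is not reported here), and up to 4 of each list with the smallest unadjusted p. Alternatives were another pseudocount and filters, other scalings, array weights, no trend, the highest row in place of the sum, and leaving out libraries. The equal-sum scalings were added after the data were seen.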

Additional observations from a re-analysis of the deposited data

How the results depend on the processing

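For summed Aire, all 17 alternatives kept the direction and the side of the threshold (limma adjusted p 0.0942 to 0.868). The log2 fold change ran from 0.10 with equal sums to 0.76 without both Con_253 and cKO_265. With 1 library left out it ran from 0.16 without Con_264 to 0.59 without cKO_265. Fezf2 reversed to -0.27 under quantile normalization, -0.045 with array weights, -0.29 with equal sums and -0.20 with equal sums without ribosomal protein genes, and ranged from -0.11 without Con_264 to 0.10 with 1 library left out. Row 1 reversed to -0.047 with equal sums. Row 2 reversed to -0.066 under quantile normalization, -0.20 with equal sums and -0.10 with equal sums without ribosomal protein genes, and ranged from -0.080 without Con_264 to 0.23. Row 6 ranged from -0.047 without Con_264 to 0.57, and its share from -1.36 to 0.53 percentage points. Other row directions and the log2 ratio of Aire to Fezf2 (0.27 to 0.62) kept their sign. The cause of these changes was not tested.

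Genes called higher (3) became 5 under quantile normalization, 1367 with array weights, 10 with equal sums, 8 with equal sums without ribosomal protein genes and 1 to 9 with 1 library left out. Genes called lower (9) became 1658 with array weights, 4 without both Con_253 and cKO_265, 214 with equal sums, 69 with equal sums without ribosomal protein genes and 1 to 14 with 1 library left out. Rows called higher (3) became 5 under quantile normalization, 369 with array weights, 1 without both libraries and 1 to 8 with 1 left out. Rows called lower (6) became 3 without a filter, 377 with array weights, 3 without the trend, 1 without both libraries, 17 with equal sums and 0 to 4 with 1 left out. No paired analysis was possible because the groups share no replicate numbers. Unknown depth, 3 libraries a group and unknown division of reads among the Aire forms limit what the rows can show.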
